A study of Mus musculus with 12 samples.

Results

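Mitochondrial ribosomal protein genes are the nuclear genes that encode the protein parts of the ribosome inside mitochondria. They were taken here as every gene whose symbol starts with Mrpl or Mrps followed by a number, without the pseudogenes marked -ps. That gave 78 of the 55450 genes in the tables, 49 of them named Mrpl and 29 named Mrps. By place in the ribosome, 51 members belong to the large subunit and 26 to the small subunit. Mrps18a and Mrps30 are counted with the large subunit despite their names, because ribosome structures place them there. Mrps36 is counted with neither, because it is now known as a component of the alpha-ketoglutarate dehydrogenase complex.

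The mitochondrial ribosome translates the few messenger RNAs made from mitochondrial DNA, all of which code for subunits of the respiratory chain and the ATP synthase. Its RNA comes from mitochondrial DNA, while its proteins are encoded in the nucleus, made in the cytosol and imported. Some of these proteins have counterparts in bacterial ribosomes and others exist only in mitochondria. T cells build up mitochondrial protein synthesis when they are activated and start to divide.

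Total RNA came from pmel-1 CD8 T cells, which carry a transgenic receptor for a melanoma antigen, and Ucp2 was wild-type in all of them. The cells had been activated in culture and grown for 4 days with IL-2 at 10 ng/ml. There were 4 groups of 3 libraries: genipin, genipin together with NAC, NAC alone, and vehicle, which was culture medium. Genipin, from gardenia fruit, serves as an inhibitor of the mitochondrial carrier Ucp2, and NAC (N-acetylcysteine) is a thiol antioxidant. Doses are not given in the labels, nor is which of the 2 stated ways of activation, peptide or antibodies, was used for which library. The labels also do not say whether replicates were separate cultures or mice, so p-values reflect only how far these libraries spread, and that spread may be technical.

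The libraries held 20838894 to 31098648 expected counts each, and every member passed the filter that left 13636 genes. The lowest count of any member in any library was 233, for Mrpl55, so no value here was near the limit of detection. Genipin+NAC replicate 1 stood apart from replicates 2 and 3 of its group. The chi-square per degree of freedom between their counts was 7.22 and 8.29, against 2.09 between replicates 2 and 3 and 2.23 to 3.00 in the other groups. Most counts of calls with that group are therefore given with and without this library. Counts under other settings, or over several contrasts together, are given only with it. Its absence moved no member's log2 fold change against vehicle by more than 0.11, with 4 calls lost (Mrpl34, Mrpl38, Mrpl54 and Mrps12), 3 gained (Mrpl18, Mrpl30 and Mrpl51) and none turned to the opposite sign. CD8 T cell markers summed to 4072 to 4133 TPM with genipin and 4575 to 4622 with genipin and NAC. They summed to 3837 to 3906 TPM with NAC and 3694 to 3769 with vehicle, so these sums also differed between groups. B cell markers summed to at most 0.44 TPM. Neutrophil and mast cell markers summed to 40.0 to 44.9 TPM with genipin, 16.1 to 19.3 with genipin and NAC, 4.94 to 5.24 with NAC and 17.8 to 19.7 with vehicle, so they moved with the groups. Of these 4 markers S100a8 was listed at 0 in every library, Ly6g reached at most 1.17 TPM, and Cpa3 and Mcpt8 of mast cells and basophils made up the rest. The 2 NK cell markers summed to 6.74 to 7.82 TPM with genipin, 3.00 to 3.81 with genipin and NAC, 0.80 to 1.13 with NAC and 1.45 to 1.68 with vehicle. The 5 markers of monocytes, macrophages and dendritic cells summed to 9.07 to 10.4, 10.2 to 12.35, 3.21 to 3.43 and 4.84 to 5.35 TPM in the same order of groups, with Csf1r and Adgre1 at most 0.05 TPM and most of the sum from Itgax, which activated T cells can also express. Cd4 stood at 0.06 to 0.44, 0.85 to 1.24, 2.15 to 2.32 and 0.38 to 0.75 TPM in that order of groups. The part of these markers in the results was not tested. In such bulk RNA, fewer cells of a type and less RNA per cell cannot be told apart.

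Per length, the members spanned an 18.1-fold range of levels. The mean over the 12 libraries ran from 222 TPM for Mrpl52 to 12.2 TPM for Mrpl1, with a median of 51.9 TPM. After Mrpl52 came Mrpl33 at 219, Mrpl30 at 201 and Mrps21 at 169 TPM. Next above Mrpl1 at the low end were Mrps30 at 13.3, Mrpl47 at 14.2 and Mrpl50 at 15.4 TPM. The proteins are present in equal numbers in an assembled ribosome, apart from the stalk protein Mrpl12; the values here are RNA levels. The plot of levels shows that the range between members was far wider than the range of any 1 member over the groups.

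**Figure D1:**
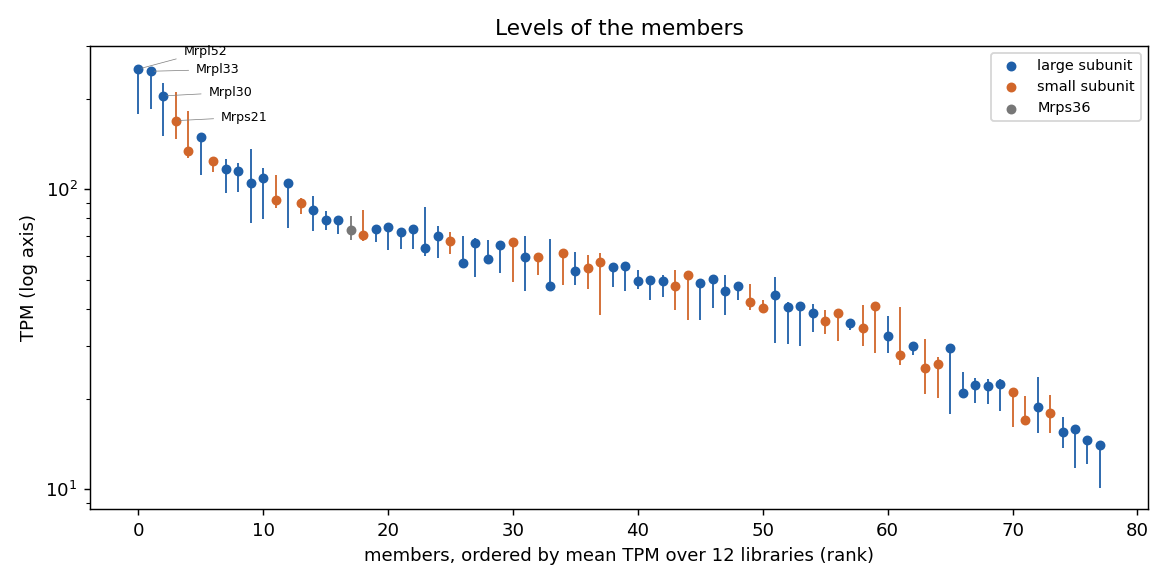
Level of each of the 78 members in TPM (log axis), ordered by the mean over 12 libraries. The point is the vehicle mean and the line runs from the lowest to the highest of the 4 group means (n = 3 libraries each). Means over the 12 libraries fall along the axis, starting at 222 TPM for Mrpl52 and ending at 12.2 TPM for Mrpl1. The highest members (Mrpl52, Mrpl33 and Mrpl30) and the lowest (Mrpl1, Mrps30, Mrpl47 and Mrpl50) belong to the large subunit. Members of both subunits lie between them.

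Genipin alone moved the members in both directions, more often down than up. Of the 78 members, 43 fell and 11 rose against vehicle (edgeR's quasi-likelihood test, Benjamini-Hochberg adjusted p under 0.05 over all genes). Of all genes tested, 31.0% fell and 29.9% rose, 61.0% in either direction; a large share of the transcriptome passed this test. Without scaling factors 36 members fell and 16 rose, where 26.0% of all genes fell and 35.7% rose. With effective length offsets 33 members fell and 7 rose, where 26.6% of all genes fell and 25.2% rose. The members' median log2 fold change was -0.16, against -0.01 for all genes. The changes were small, and Mrps28 was the only member to pass with a change of at least 1.5-fold. The share of all genes that passed this rule is not given here.

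Mrps28, a small subunit protein encoded at chr3:8802146-8923918, fell most. Mrps28 had 13.6, 13.1 and 13.6 CPM in the genipin libraries, 14.3, 14.9 and 13.7 CPM with genipin and NAC, 17.3, 14.9 and 15.8 CPM with NAC and 21.1, 21.5 and 20.8 CPM with vehicle. All genipin libraries lay below all vehicle libraries, and the log2 fold change was -0.65 ± 0.067 (SE; adjusted p = 2.9e-08). Mrps10, encoded at chr17:47368887-47381417, is the small subunit's counterpart of bacterial S10. Mrps10 had 26.4, 25.2 and 27.4 CPM in the genipin libraries, 29.0, 27.7 and 28.1 CPM with genipin and NAC, 34.2, 33.2 and 35.6 CPM with NAC and 41.0, 38.5 and 37.2 CPM with vehicle. Its change with genipin was -0.56 ± 0.056 (SE; adjusted p = 2.3e-08), again with no overlap between genipin and vehicle.

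In the large subunit, the falls were led by Mrpl30 at chr1:37890477-37898535, a protein shared with bacteria. Mrpl30 had 78.5, 77.9 and 79.5 CPM in the genipin libraries, 116, 123 and 120 CPM with genipin and NAC, 112, 114 and 110 CPM with NAC and 113, 118 and 114 CPM with vehicle. Genipin libraries stood alone at a low level here, and the other 3 groups lay close together, with a log2 fold change of genipin against vehicle of -0.55 ± 0.034 (SE; adjusted p = 9e-12). Mrpl45 at chr11:97315716-97329920 sits at the exit of the peptide tunnel and helps to hold the ribosome to the inner membrane. Mrpl45 had 59.5, 56.3 and 55.7 CPM in the genipin libraries, 83.9, 83.7 and 77.7 CPM with genipin and NAC, 69.2, 72.2 and 71.2 CPM with NAC and 82.8, 80.8 and 84.8 CPM with vehicle. Its log2 fold change with genipin was -0.53 ± 0.041 (SE; adjusted p = 3.1e-10), and the libraries with both compounds overlapped those with vehicle. Mrpl14, whose protein lies on the face that meets the small subunit, changed by -0.50 ± 0.085 (SE; adjusted p = 3.3e-05). Exons of Mrpl14 overlap those of Tmem63b on the opposite strand, so its reads are less certain than those of Mrpl30 and Mrpl45, which overlap no other gene.

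The members that rose with genipin were led by Mrps12 at chr7:28739641-28741820, the protein of the decoding centre. Mrps12 had 15.7, 17.5 and 18.3 CPM in the genipin libraries, 10.6, 11.9 and 11.4 CPM with genipin and NAC, 11.9, 12.3 and 10.9 CPM with NAC and 12, 13.0 and 14.3 CPM with vehicle. Genipin libraries were the highest, and the log2 fold change against vehicle was 0.39 ± 0.081 (SE; adjusted p = 0.00033). Mrpl27 at chr11:94653767-94660089 is related to the bacterial protein next to the site of peptide bond formation. Mrpl27 had 38.7, 39.3 and 38.6 CPM in the genipin libraries, 27.4, 26.9 and 27.4 CPM with genipin and NAC, 23.3, 27.2 and 23.5 CPM with NAC and 28.9, 32.1 and 31.1 CPM with vehicle. It rose by 0.34 ± 0.06 (SE; adjusted p = 5.5e-05) on the log2 scale, with reads that may be shared with Eme1 on the opposite strand. Mrpl20 at chr4:155802878-155809975, a large subunit protein shared with bacteria, rose by 0.25 ± 0.041 (SE; adjusted p = 2.1e-05). Mrpl20 had 62.5, 61.5 and 60.8 CPM in the genipin libraries, 36.5, 35.6 and 36.8 CPM with genipin and NAC, 37.0, 38.9 and 36.1 CPM with NAC and 51.2, 51.9 and 52.0 CPM with vehicle. Genipin gave the highest Mrpl20 values, while both groups with NAC lay far below vehicle. Mrpl49 and Mrpl51, which exist only in mitochondria, rose by 0.22 ± 0.07 (SE; adjusted p = 0.011) and 0.20 ± 0.06 (SE; adjusted p = 0.0066), and Mrpl49 no longer passed without vehicle replicate 2 (adjusted p = 0.077).

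**Figure D2:**
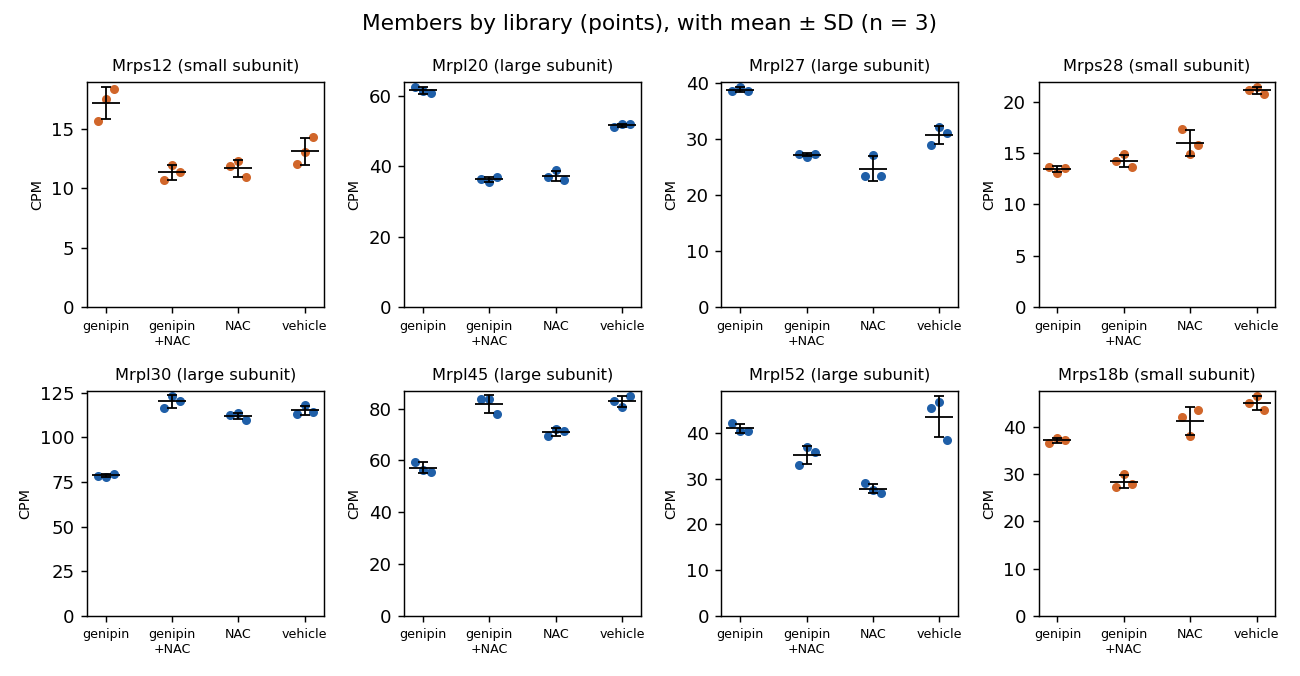
Normalised level (CPM, TMM-scaled) of 8 members in the 12 libraries, with a panel for each member. Points are libraries, the long line is the mean and the bars are SD (n = 3). Mrps12, Mrpl20 and Mrpl27 are highest with genipin, Mrpl30 and Mrpl45 are lowest with genipin, Mrpl52 is lowest with NAC, and Mrps18b is lowest with genipin and NAC.

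The bases just before the start sites of 3 members that rose and 3 that fell with genipin are shown to let their promoters be compared. They are the largest rises and the largest falls among members with a RefSeq window whose bases lie before the annotated gene or reach at most 27 bases into it; Mrps28 had no window and the bases of Mrps10 lay inside its gene. This choice was made after the values were seen. Each line holds 120 bases that end just before the RefSeq start site on GRCm38.p6, and capitals mark matches to the 4 exact motifs named after the list.
Mrps12, chr7:28741822-28741941, minus strand: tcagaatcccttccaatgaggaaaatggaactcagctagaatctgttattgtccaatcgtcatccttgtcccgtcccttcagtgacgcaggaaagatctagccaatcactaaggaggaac
Mrpl27, chr11:94653671-94653790, plus strand: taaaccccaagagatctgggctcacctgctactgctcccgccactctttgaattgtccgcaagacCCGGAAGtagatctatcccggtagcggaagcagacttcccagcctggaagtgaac
Mrpl20, chr4:155802758-155802877, plus strand: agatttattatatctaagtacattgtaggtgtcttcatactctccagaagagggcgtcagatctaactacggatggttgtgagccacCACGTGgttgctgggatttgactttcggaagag
Mrpl30, chr1:37890357-37890476, plus strand: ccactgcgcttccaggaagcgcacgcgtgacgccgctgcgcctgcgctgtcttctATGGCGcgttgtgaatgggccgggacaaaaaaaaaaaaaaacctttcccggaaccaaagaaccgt
Mrpl45, chr11:97315596-97315715, plus strand: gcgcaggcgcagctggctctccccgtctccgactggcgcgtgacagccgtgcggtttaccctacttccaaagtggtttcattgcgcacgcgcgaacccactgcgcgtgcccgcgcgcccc
Mrpl14, chr17:45686229-45686348, plus strand: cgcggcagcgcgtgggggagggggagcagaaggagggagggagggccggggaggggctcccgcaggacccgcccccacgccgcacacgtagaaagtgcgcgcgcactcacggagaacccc

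RefSeq windows from 250 bases before to 50 after the start site were found for 69 of the 78 members, 75 windows in all. The searched motifs, on both strands and not overlapping each other in the lines above, were CCGGAAG for ETS factors such as GABP, ATGGCG for YY1, CACGTG for MYC and the palindrome GCGCATGCGC for NRF1. CCGGAAG stood in 34.7% of member windows, against 18.0% of windows of genes tested and 8.86% of all windows. ATGGCG stood in 25.3% of member windows, against 15.2% of tested and 8.93% of all. CACGTG stood in 9.33%, against 9.84% and 7.15%. The NRF1 palindrome stood in 4.00% of member windows (3 windows, of Mrpl9, Mrpl32 and Mrpl39), against 2.09% of tested and 0.971% of all. A looser form with its sixth base free, GCGCANGCGC, was tried only after the member windows had been seen and stood in 17.3%, against 10.0% and 4.60%, so the NRF1 share depends on the form of the motif. The looser form is not in capitals in the lines above, where it stands 2 times in Mrpl45 and 1 time in Mrpl30. These are matches of letters, with no test, and they say nothing of binding. Within the bases shown, Mrpl27 has CCGGAAG, Mrpl20 has CACGTG, Mrpl30 has ATGGCG, and Mrps12, Mrpl45 and Mrpl14 have none of the 4 exact motifs; the other members that rose or fell are not shown.

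With NAC alone, the members moved down. Of the 78, 55 fell and 0 rose against vehicle by edgeR's quasi-likelihood test, where 30.0% of all genes fell, 29.6% rose and 59.7% passed in either direction. The median log2 fold change of the members was -0.22, against -0.01 for all genes. Without scaling factors the count was 34 lower and 2 higher, where 19.8% of all genes were lower and 41.2% higher. The median of all genes was then shifted by up to 0.11. Mrpl52, the member with the highest level per length, fell most. Mrpl52 had 42.1, 40.4 and 40.4 CPM in the genipin libraries, 33.1, 36.8 and 35.8 CPM with genipin and NAC, 28.9, 27.6 and 27.0 CPM with NAC and 45.5, 46.8 and 38.4 CPM with vehicle. All NAC libraries lay below all others, and the log2 fold change against vehicle was -0.65 ± 0.067 (SE; adjusted p = 3.7e-08). Mrpl33, the second in level, had 38.0, 41.3 and 41.2 CPM with NAC against 61.8, 56.6 and 65.5 CPM with vehicle, a change of -0.61 ± 0.055 (SE; adjusted p = 4.4e-09). Mrps24, counterpart of bacterial S3 at the messenger RNA entry, fell by 0.60 on the log2 scale (adjusted p = 3.6e-08). Mrpl33 and Mrps24 share exon sequence with other genes on their own strand, which makes their counts uncertain. Mrpl11, of the stalk base where translation factors bind, had 24.8, 25.8 and 27.6 CPM with NAC against 40.1, 38.8 and 38.2 CPM with vehicle, a change of -0.58 ± 0.057 (SE; adjusted p = 1.9e-08). Its genipin libraries did not differ from vehicle by the test (-0.03 ± 0.055 (SE; adjusted p = 0.66)).

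With genipin and NAC together, 60 of 78 members fell and 0 rose against vehicle, where 28.9% of all genes fell, 28.5% rose and 57.4% passed in either direction. The median log2 fold change was -0.25, against 0.00 for all genes. Without genipin+NAC replicate 1, 58 fell and 1 rose, Mrpl30 (0.08, adjusted p = 0.027). Mrps18b, a small subunit protein counted here as mitochondria-specific, fell most. Mrps18b had 36.7, 37.6 and 37.2 CPM in the genipin libraries, 27.3, 30.0 and 28.0 CPM with genipin and NAC, 42.0, 38.0 and 43.6 CPM with NAC and 45.0, 46.6 and 43.5 CPM with vehicle. The libraries with both compounds lay below those of every other group, and the log2 fold change was -0.66 ± 0.057 (SE; adjusted p = 2.4e-09) against vehicle and -0.54 ± 0.057 (SE; adjusted p = 8.4e-08) against NAC. Mrpl12, the stalk protein that recruits translation factors, had 70.7, 74.3 and 70.0 CPM with both compounds against 108, 109 and 102 CPM with vehicle. The change was -0.57 ± 0.041 (SE; adjusted p = 1.3e-10). Mrpl19, shared with bacteria, changed by -0.59 ± 0.045 (SE; adjusted p = 3.6e-10). Exons of Mrps18b, Mrpl12 and Mrpl19 overlap other genes on the opposite strand.

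The large and the small subunit had close medians in each contrast with vehicle in the fit to 12 libraries, and lay further apart for genipin and NAC when effective lengths entered the fit. As background to the counts, the shares of all genes lower and higher than vehicle were 31.0% and 29.9% for genipin. For genipin plus NAC these shares were 28.9% and 28.5%, for NAC alone 30.0% and 29.6%. With genipin, 28 of 51 large subunit members fell and 5 rose (median log2 fold change -0.17). In the small subunit, 14 of 26 members fell and 6 rose (median -0.16). With both compounds, 39 large subunit members fell and 0 rose (median -0.25), and 21 small subunit members fell and 0 rose (median -0.25). With genipin+NAC replicate 1 left out these were 38 and 1, and 20 and 0. With NAC, 37 and 0 of the large subunit (median -0.22) stood beside 18 and 0 of the small subunit (median -0.22). The large minus small difference of medians was -0.0129 with genipin, 0.00452 with both compounds and -0.00562 with NAC. Each was smaller than 0.0268, the pooled SD within groups of that difference in single libraries. That SD is a rough scale and not the error of a contrast between group means. With effective length offsets the difference was -0.0781, -0.0184 and -0.0589 in the same order, past that SD for genipin and NAC. Without genipin replicate 1 it was -0.0418 for genipin. It was 0.0796 for both compounds against genipin, and 0.0434 there without genipin+NAC replicate 1, both past that SD. For the interaction it was 0.0462, also past that SD. No test was made of these differences.

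**Figure D3:**
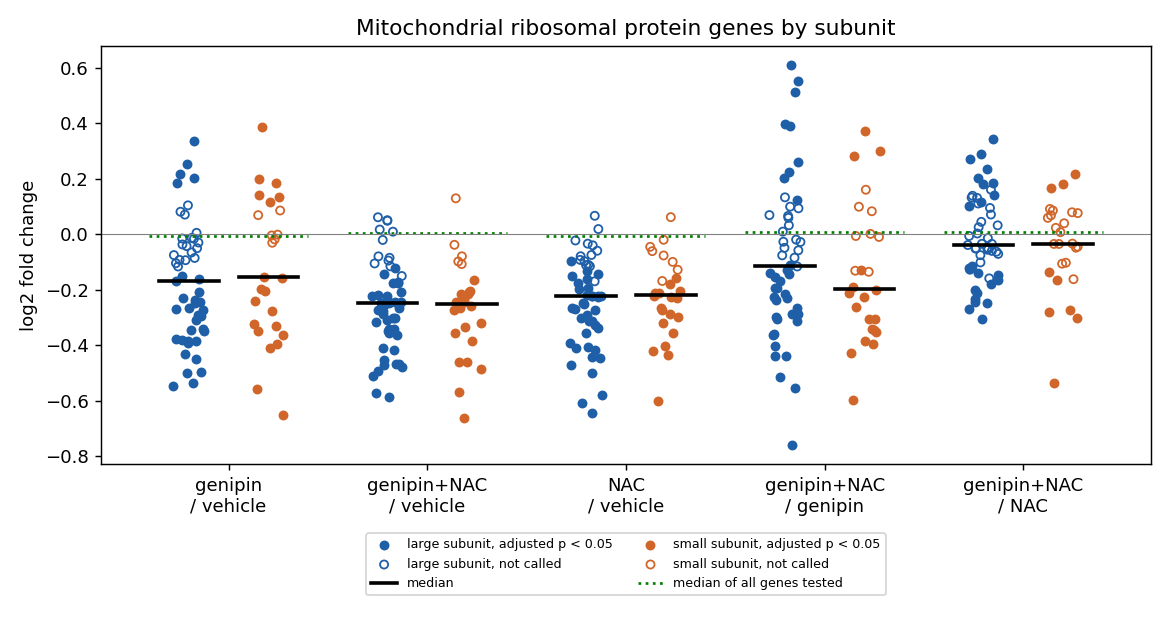
Log2 fold change of each large subunit (51) and small subunit (26) member in 5 contrasts, from the fit to 12 libraries. Filled points passed at adjusted p under 0.05, black lines are medians and dotted lines the median of all genes tested. The medians are -0.17 and -0.16 with genipin and between -0.22 and -0.25 in the groups with NAC, and no member passed as higher than vehicle in either group with NAC.

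The summed level of the large subunit members was set against that of the small subunit members in each library. Ribosome proteins with other symbols, such as Dap3 of the small subunit, are not in these sums. The ratio of summed TPM was 2.14, 2.02 and 2.01 in the genipin libraries, 2.17, 2.28 and 2.21 with genipin and NAC, 2.12, 2.12 and 2.15 with NAC and 2.24, 2.25 and 2.24 with vehicle. On this scale all genipin libraries and all NAC libraries lay below all vehicle libraries. The means were 2.06 ± 0.069 with genipin, 2.22 ± 0.059 with both compounds, 2.13 ± 0.019 with NAC and 2.24 ± 0.0053 with vehicle (SD, n = 3 each). The mean with both compounds was 2.24 without genipin+NAC replicate 1. With CPM in place of TPM the means were 2.10, 2.21, 2.15 and 2.18, the gap between genipin and vehicle was smaller, and NAC (2.14, 2.18 and 2.14) overlapped vehicle (2.19, 2.17 and 2.20). The ratio was not tested. Summed over all members, the level was 4969 ± 18 TPM with genipin, 4417 ± 21 with both compounds, 4781 ± 40 with NAC and 4982 ± 55 with vehicle. TPM and scaled CPM differ in their baseline: by TPM, the median log2 ratio to vehicle over all genes tested was 0.13 with genipin, 0.07 with both compounds and 0.19 with NAC. Relative to that baseline, the members' median was -0.16, -0.26 and -0.21 in the same order.

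Members were also split, by their names in ribosome structures, into those shared with bacteria and those specific to mitochondria. Mrps18a and Mrps18b fall in the second class by this rule, although their symbols are shared with Mrps18c. With both compounds, where 28.9% of all genes fell, 23 of 30 shared and 16 of 21 mitochondria-specific large subunit members fell. In the small subunit, 15 of 16 shared and 6 of 10 specific members fell. These were 23, 15, 14 and 6 in the same order without genipin+NAC replicate 1. With genipin, where 31.0% of all genes fell, the counts were 18 of 30 and 10 of 21 in the large subunit and 9 of 16 and 5 of 10 in the small one. With NAC, where 30.0% fell, they were 21 of 30, 16 of 21, 11 of 16 and 7 of 10. Whether the classes differ was not tested. The members lie on 17 chromosomes. Leaving out the 33 whose exons overlap those of another gene left 45, of which 26 fell and 4 rose with genipin, 36 fell and 0 rose with both compounds (32 and 1 without genipin+NAC replicate 1), and 30 fell and 0 rose with NAC.

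The 3 contrasts with vehicle share its libraries, so each contrast's own values are set side by side for members that show the range of patterns. Mrpl58, a hydrolase that frees peptides from stalled ribosomes, changed by -0.27 with genipin, -0.18 with both compounds and -0.36 with NAC, and passed in each. Mrpl20 changed by 0.25, -0.51 and -0.47 in the same order, and passed in each with opposite signs. Mrpl30 changed by -0.55, 0.06 and -0.04, and passed with genipin but not with both compounds (adjusted p = 0.12) or NAC (adjusted p = 0.31). Mrpl11 changed by -0.03, -0.47 and -0.58, and passed in the groups with NAC. Passing in at least 1 contrast with vehicle were 76 members, and 86.6% of all genes did so. The 2 that did not were Mrpl39, at -0.08, -0.10 and -0.10, and Mrps31, at -0.03, 0.13 and 0.06.

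The 3 members named Mrps18 had different values. Mrps18c, the closest to the bacterial protein, changed by 0.14 with genipin, -0.16 with both compounds and -0.20 with NAC, and passed in each. Mrps18b changed by -0.28, -0.66 and -0.13 in the same order, and did not pass with NAC (adjusted p = 0.051). Mrps18a, which sits in the large subunit, changed by -0.09, -0.23 and -0.22, and did not pass with genipin (adjusted p = 0.15). Mrps36, the member outside the ribosome, fell with genipin, by 0.22 ± 0.057 on the log2 scale, and did not pass with both compounds or NAC.

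Adding NAC to genipin moved members in both directions. Against genipin alone, 41 members were lower and 13 higher with both compounds, where 34.3% of all genes were lower, 35.0% higher and 69.3% either. Without genipin+NAC replicate 1 the counts were 39 and 15. Higher were Mrpl30 by 0.61 ± 0.034 (SE; adjusted p = 7.9e-13), Mrpl14 by 0.55 ± 0.085 (SE; adjusted p = 6.7e-06) and Mrpl45 by 0.51 ± 0.041 (SE; adjusted p = 3.4e-10) on the log2 scale. Mrpl32, which is cut by the m-AAA protease before it joins the ribosome, and Mrpl24, near the tunnel exit, were higher by 0.40 ± 0.052 and 0.39 ± 0.035. Lower were Mrpl20 at -0.76 ± 0.043 (SE; adjusted p = 1e-12), Mrps12 at -0.60 ± 0.083 (SE; adjusted p = 1.5e-06) and Mrpl49 at -0.56 ± 0.071 (SE; adjusted p = 5.2e-07). This contrast shares the genipin libraries with that of genipin against vehicle.

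Against NAC alone, adding genipin left 19 members lower and 13 higher, where 26.5% of all genes were lower, 26.6% higher and 53.1% either, and the median was -0.04. Without genipin+NAC replicate 1, 15 were lower and 14 higher. The lower count was 12 without NAC replicate 2 and 12 without NAC replicate 3, where 23.9% and 23.6% of all genes were lower. Without scaling factors 33 were lower and 5 higher, where 34.7% of all genes were lower and 19.4% higher. With effective length offsets the counts were 9 and 9, where the shares were 21.8% and 21.3%. No lean of the counts in either direction held over these settings. Mrpl52 and Mrpl33 were higher with both compounds than with NAC, by 0.34 ± 0.068 (SE; adjusted p = 0.00021) and 0.29 ± 0.056 (SE; adjusted p = 0.00015). Besides Mrps18b, Mrpl12 at -0.30 ± 0.042 (SE; adjusted p = 2.6e-06) and Mrps10 at -0.28 ± 0.056 (SE; adjusted p = 0.00025) were lower.

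The genipin effect differed with and without NAC for 35 members. Testing the difference between the 2 effects (the interaction), 29 members had a more positive genipin effect in the presence of NAC and 6 a more negative one, where the shares over all genes were 27.4% and 24.0%, 51.4% in either direction. Without genipin+NAC replicate 1, the counts were 30 and 8. Without scaling factors they were 18 and 18, where 19.2% of all genes had positive and 35.2% negative differences. The counts thus depend on the scaling, and so do the shares of all genes. Mrpl45 changed by 0.20 with genipin in the presence of NAC and by -0.53 in its absence, a difference of 0.74 ± 0.057 (SE; adjusted p = 5.6e-10). Mrpl30 changed by 0.10 and -0.55, a difference of 0.65 ± 0.047 (SE; adjusted p = 1.8e-10). Mrps12 went the other way, with -0.05 and 0.39, a difference of -0.43 ± 0.12 (SE; adjusted p = 0.0045). Of the large subunit members 20 had positive and 4 negative differences, and of the small subunit members 8 and 2 (21 and 6, and 8 and 2, without genipin+NAC replicate 1).

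**Figure D4:**
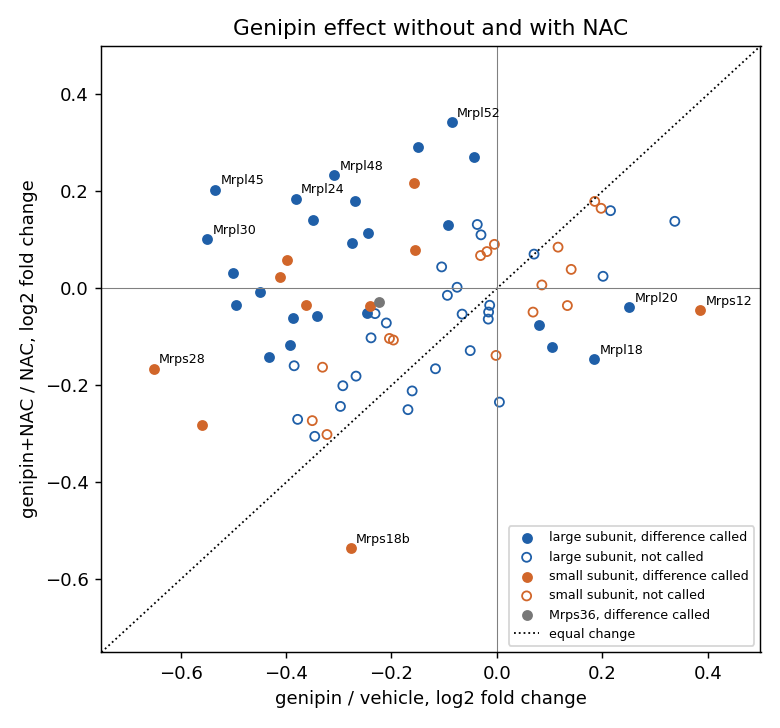
Genipin effect on each member in the presence of NAC (genipin+NAC / NAC, vertical axis) against that in its absence (genipin / vehicle, horizontal axis), as log2 fold changes. Filled points are the 35 members whose 2 effects differed at adjusted p under 0.05, and the dotted line marks equal change. Most filled points lie above the line, with Mrpl45 and Mrpl30 farthest from it, while Mrps12, Mrpl18, Mrpl20 and Mrps18b lie below.

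Other genes of mitochondrial protein synthesis are given for comparison by counts of calls against vehicle. Beside them stand the shares of all genes, of which 31.0% fell and 29.9% rose with genipin, 28.9% fell and 28.5% rose with both compounds, and 30.0% fell and 29.6% rose with NAC. Of 5 mitochondrial ribosome proteins with other symbols, 4 fell in each contrast. Dap3, a GTP-binding protein of the small subunit, had 46.9, 46.5 and 46.5 CPM with genipin, 61.9, 65.0 and 63.7 CPM with both compounds, 82.7, 81.3 and 79.1 CPM with NAC and 76.7, 80.4 and 82.7 CPM with vehicle. Its change with genipin, -0.78 ± 0.039 (SE; adjusted p = 3.6e-13), was larger in size than that of any of the 78 members. Of 27 assembly factors, 13 fell (48.1%) and 1 rose with genipin, 9 fell (33.3%) and 1 rose with both compounds, and 9 fell (33.3%) and 5 rose with NAC, so the share that fell was near that of all genes in both groups with NAC. Mrm1, which methylates the large ribosomal RNA, changed by -0.70 ± 0.069 (SE; adjusted p = 1.8e-08) with genipin and 0.24 ± 0.064 (SE; adjusted p = 0.0032) with NAC. Of 16 translation factors, 5, 9 and 6 fell and 0 rose with genipin, both compounds and NAC, and the share with genipin (31.2%) was near that of all genes. Mrrf, which recycles ribosomes, fell in all 3, to 17.3 ± 1.1 CPM with genipin, 20.2 ± 0.393 with both compounds and 18.2 ± 0.546 with NAC, against 23.6 ± 1.2 CPM with vehicle (SD, n = 3 each). Of 17 mitochondrial aminoacyl-tRNA synthetases, 9 fell and 3 rose with genipin, 8 fell and 0 rose with both compounds, and 7 fell and 4 rose with NAC. The falls with both compounds numbered 4, 10, 9 and 8 in these 4 lists without genipin+NAC replicate 1, and the rises 0, 2, 0 and 0.

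Most of the messenger RNAs that this ribosome translates rose with genipin. Of the 13 encoded in mitochondrial DNA, 12 rose and 0 fell with genipin, with a median log2 fold change of 0.56. With both compounds 1 rose and 6 fell (median -0.20), or 1 and 8 (median -0.28) without genipin+NAC replicate 1, and with NAC 0 rose and 8 fell (median -0.40). mt-Cytb, a subunit of complex III, had 2429, 2432 and 2337 CPM with genipin, 1030, 906 and 911 CPM with both compounds, 738, 756 and 763 CPM with NAC and 1324, 1264 and 1304 CPM with vehicle. Among 79 tested nuclear genes of respiratory chain subunits, 44 fell and 6 rose with genipin, 57 fell and 5 rose with both compounds, and 62 fell and 4 rose with NAC. Their medians, -0.13, -0.24 and -0.24, were close to those of the members, -0.16, -0.25 and -0.22. Among 82 tested cytosolic ribosomal proteins, 75 fell and 1 rose with genipin (median -0.36), 34 fell and 11 rose with both compounds (median -0.04), and 68 fell and 0 rose with NAC (median -0.21). Cytosolic ribosomal proteins had their lowest median with genipin alone, and the mitochondrial members had their lowest median with both compounds. With genipin+NAC replicate 1 left out, both compounds gave 58 lower and 5 higher respiratory chain genes, and 34 lower and 22 higher cytosolic ribosomal proteins. In the fit to 12 libraries, 31.0% of all genes were lower and 29.9% higher for genipin. For genipin plus NAC the shares were 28.9% and 28.5%, for NAC alone 30.0% and 29.6%. Whether the lists differ from each other was not tested.

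**Figure D5:**
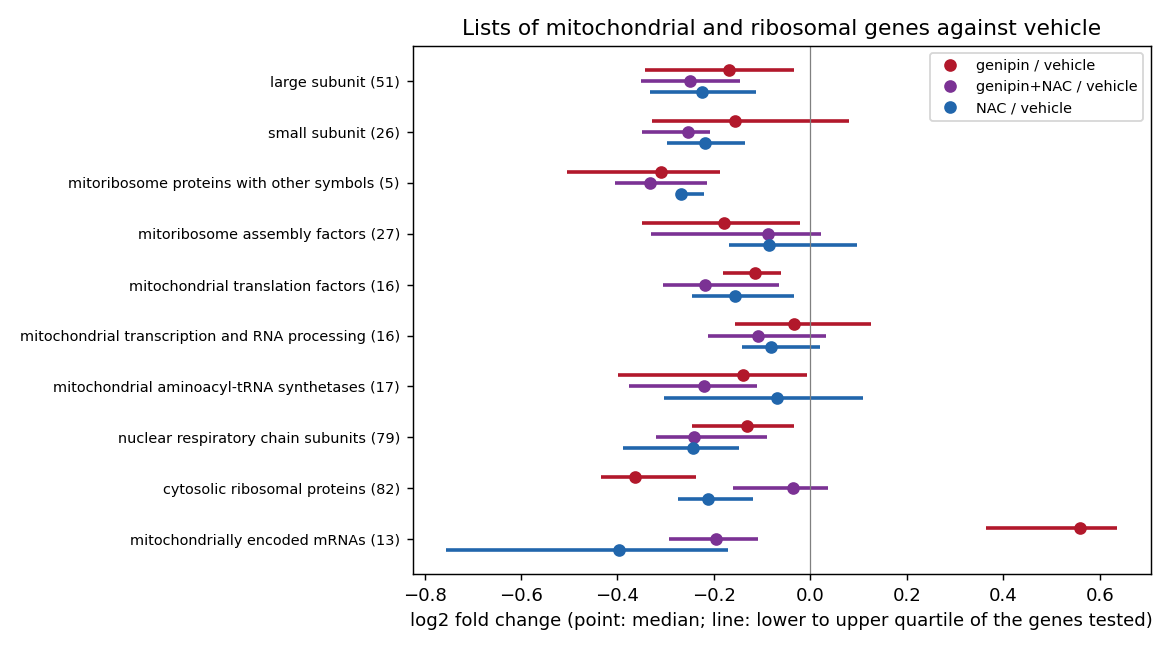
Log2 fold changes against vehicle of the 2 subunits and of 8 other gene lists, for genipin, genipin with NAC, and NAC. Points are medians, lines run from the lower to the upper quartile of the genes tested, and the number of genes is in brackets. Mitochondrially encoded mRNAs are the list with a positive median with genipin (0.56), and cytosolic ribosomal proteins have a median of -0.04 with both compounds, against -0.25 for both mitochondrial subunits.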

How the data were processed

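RNA of 12 libraries in 4 groups of 3 was analysed. Per the labels, ribosomal RNA was removed, the kit kept strand, and reads were pairs of 150 bases, and the strand setting of the counting is not given in the sources used here. Per the submitters' processing notes, the tools were RSEM 1.3.1, STAR 2.7.0f, cutadapt 1.18 and bcl2fastq with the mm10 build, with no role stated. The authors deposited, per the file headers, expected counts, TPM, FPKM and effective lengths per gene. Expected counts were rounded and tested, the deposited TPM were used only for levels per length, and FPKM were left out.

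Members and gene lists were chosen with earlier results of these data known, and motifs were chosen after the tests were run. Genes were filtered with filterByExpr in edgeR 4.0.16 (R 4.3.3), scaled with TMM (factors 0.961 to 1.05), and all 12 libraries entered 1 model of group means (8 residual degrees of freedom). Contrasts used the quasi-likelihood F test, with Benjamini-Hochberg adjustment over all 13636 genes tested, and calls needed an adjusted p under 0.05. Fold changes are log2, and the SE is the absolute log2 fold change over the square root of F. CPM scale the counts by the TMM-adjusted library total. The precision comes from the library totals of 20838894 to 31098648 and a coefficient of variation between replicates of 0.0393. edgeR calls this coefficient biological, but here it may be technical.

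For each contrast the rule for named members took the 5 largest rises and 5 largest falls among those called, without overlap between the groups and with a mean of at least 5 CPM, and 4 and 4 for the interaction. It also took the 4 members with the highest and lowest level, and the text describes part of these. Steps were also run on data simulated with the spread estimated in this fit. Such data cannot show whether the model suits these libraries, and the outcome is not given here. Alternatives were RLE factors, no scaling factors, DESeq2 1.42.0, limma-voom (limma 3.58.1), no filter, a mean of at least 5 CPM, only the groups compared, a 1.5-fold minimum, a limit of 0.01 on the adjusted p, effective length offsets, the replicate number as a block, and each library left out. Coordinates and overlaps are from the GENCODE annotation on mm10 and promoter windows from RefSeq on GRCm38.p6. The 5 pseudogenes marked -ps may share reads with members. Figures used matplotlib 3.10.9 under Python 3.11.15.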

Additional observations from a re-analysis of the deposited data

Results flagged for a closer look

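For 8 members the genipin effect in the presence of NAC differed from that in its absence by edgeR's quasi-likelihood test of the difference, the 4 most positive and 4 most negative among those that passed. Differences are log2 fold changes with SE and Benjamini-Hochberg adjusted p. Mrpl45 changed by 0.20 with NAC present and by -0.53 without it, a difference of 0.74 ± 0.057 (SE; adjusted p = 5.6e-10). Mrpl30 changed by 0.10 with NAC present and by -0.55 without it, a difference of 0.65 ± 0.047 (SE; adjusted p = 1.8e-10). Mrpl24 changed by 0.19 with NAC present and by -0.38 without it, a difference of 0.57 ± 0.05 (SE; adjusted p = 3.7e-09). Mrpl48 changed by 0.23 with NAC present and by -0.31 without it, a difference of 0.54 ± 0.092 (SE; adjusted p = 4.3e-05). Mrps12 changed by -0.05 with NAC present and by 0.39 without it, a difference of -0.43 ± 0.12 (SE; adjusted p = 0.0045). Mrpl18 changed by -0.15 with NAC present and by 0.18 without it, a difference of -0.33 ± 0.082 (SE; adjusted p = 0.0019). Mrpl20 changed by -0.04 with NAC present and by 0.25 without it, a difference of -0.29 ± 0.061 (SE; adjusted p = 0.00041). Mrps18b changed by -0.54 with NAC present and by -0.28 without it, a difference of -0.26 ± 0.08 (SE; adjusted p = 0.01). No sign of these differences changed when any library was left out. Exons of Mrpl24, Mrpl48, Mrpl18 and Mrps18b overlap those of other genes.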

How the results depend on the processing

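Counts of members called held within 1.5 times, and every direction held, under RLE factors, DESeq2, limma-voom, no filter and only the groups compared. Without scaling factors, 1 member was higher with both compounds, and 2 were higher and 34 lower with NAC. In that setting 5 were higher and 33 lower with both against NAC, and the interaction gave 18 and 18. The shares of all genes were then 32.3% higher with both compounds, and 41.2% higher and 19.8% lower with NAC. They were 19.4% and 34.7% with both against NAC, and 19.2% and 35.2% for the interaction. The cause was not tested. With a mean of at least 5 CPM, 1 was higher with both compounds, where 33.1% of all genes were higher. With effective length offsets, 7 were higher with genipin and 9 lower with both against NAC, and the large minus small difference of medians was -0.0781 for genipin, -0.0589 for NAC, 0.0414 for both against genipin and 0.0871 for the interaction. With subunits taken from symbols it was 0.024 for both against genipin. At adjusted p under 0.01, 6 were higher with genipin, and 8 higher and 9 lower with both against NAC. At a change of at least 1.5-fold, higher and lower members numbered 0 and 1 for genipin, 0 and 2 for both compounds and 0 and 3 for NAC. They numbered 1 and 2 for both against genipin, 0 and 0 for both against NAC, and 2 and 0 for the interaction. Fewer genes can pass this rule, and shares of all genes at this limit or at 0.01 are not given here. The ratio of large to small subunit was 2.18, 2.32, 2.23 and 2.34 (genipin, both, NAC, vehicle) without the most abundant member of each subunit, and 2.15 with NAC and 2.18 with vehicle on CPM. With each library left out in turn, genipin against vehicle gave 8 to 13 higher and 37 to 43 lower members and a large minus small difference of -0.0418 to -0.0123. With each library left out in turn, both compounds against vehicle gave 0 to 1 higher and 55 to 60 lower members and a large minus small difference of -0.0165 to 0.0101. With each library left out in turn, NAC against vehicle gave 0 to 0 higher and 52 to 57 lower members and a large minus small difference of -0.0189 to -0.00317. With each library left out in turn, both against genipin gave 11 to 15 higher and 36 to 41 lower members and a large minus small difference of 0.0434 to 0.0976. With each library left out in turn, both against NAC gave 10 to 14 higher and 12 to 18 lower members and a large minus small difference of -0.0403 to 0.0214. With each library left out in turn, the interaction gave 26 to 30 higher and 6 to 8 lower members and a large minus small difference of 0.0128 to 0.0770. The ratio then ran from 2.02 to 2.08 (genipin), 2.19 to 2.24 (both), 2.12 to 2.14 (NAC), 2.24 to 2.25 (vehicle). Of 48 pairs of named member and contrast, 995 of 1000 alternative values kept their call and none reversed. The pairs were picked as the largest changes already called in these libraries, so this count says little about other members. Over all 78 members, leaving out genipin+NAC replicate 1 lost 6 calls and gained 3 for both compounds against NAC. Same-numbered replicates correlated from -0.0751 to 0.0437 over 18 pairs after removal of group means, and 4 of 12 were closest to a library of their own number, so the numbers give no pairing. With the replicate block, higher and lower counts were 11 and 43, 0 and 59, 0 and 55, 13 and 39, 12 and 17, and 29 and 6, in the order of the contrasts above. The shares of all genes higher and lower were then 29.7% and 30.8%, 28.3% and 28.6%, and 29.4% and 29.6% against vehicle. For the last 3 contrasts they were 34.7% and 34.0%, 26.4% and 26.1%, and 27.1% and 23.9%.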

Other observations

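Both members of a pair of genes that start next to each other on opposite strands, Mrps11 and Mrpl46, were lower than vehicle in both groups with NAC. Their RefSeq start sites on chromosome 7 are separated by 41 bases, chr7:78783090-78783130. Mrps11 changed by -0.02 with genipin, -0.21 with both compounds and -0.29 with NAC, and Mrpl46 by -0.04, -0.28 and -0.41 in the same order. Neither passed with genipin. Both compounds against NAC did not pass by edgeR's quasi-likelihood test for Mrps11 (adjusted p = 0.34) or Mrpl46 (adjusted p = 0.077). Their exons overlap in the annotation, so some reads may be shared. Mrps12 and Sars2, the mitochondrial seryl-tRNA synthetase, also start on opposite strands, 172 bases apart. Sars2 had 17.5, 18.1 and 18.0 CPM with genipin, 9.21, 11.3 and 13.1 CPM with both compounds, 13.1, 10.7 and 10.7 CPM with NAC and 13.4, 16.5 and 15.4 CPM with vehicle, highest with genipin as Mrps12 was. These pairs were picked after their values were seen.

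Among 9 tested regulators of nuclear genes for mitochondria, 3 rose and 3 fell with genipin, 2 rose and 2 fell with both compounds, and 5 rose and 2 fell with NAC. The genipin counts are near the shares of all genes in that contrast, 29.9% higher and 31.0% lower. With both compounds 22.2% of the list went each way, where 28.5% of all genes were higher and 28.9% lower. Those 2 counts were the same without genipin+NAC replicate 1. With NAC 55.6% of the list was higher and 22.2% lower, where the shares of all genes were 29.6% and 30.0%. The list is short, and the difference from all genes was not tested. Nrf1, a factor that binds promoters of many such genes, had 44.8, 44.2 and 43.9 CPM with genipin, 34.4, 34.4 and 35.4 CPM with both compounds, 34.2, 32.5 and 34.5 CPM with NAC and 29.4, 32.3 and 30.1 CPM with vehicle. Pprc1, a coactivator of that factor, had 24.4, 30.5 and 30.4 CPM with both compounds against 61.0, 64.1 and 61.2 CPM with vehicle, a log2 fold change of -1.12 ± 0.063 (SE; adjusted p = 2.7e-12) by edgeR's quasi-likelihood test. Myc changed by 0.07 with genipin, which did not pass (adjusted p = 0.14), and by -0.32 with both compounds and -0.36 with NAC, which did.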
